A study of Mus musculus with 2 samples.

Results

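The Mir322 cluster is a row of microRNA hairpins on the mouse X chromosome that carries Mir322, Mir503, Mir351, Mir542, a pair of Mir450a hairpins and Mir450b. Its hairpins were taken as the 7 genes with these symbols, and 7 of 7 have a row among the 1973 loci of the count tables. By GENCODE symbol 5 matched directly, while Mir450a-1 and Mir450a-2 matched through RefSeq synonyms of Mir450-1 and Mir450-2. The libraries hold small RNA under 30 nt from the midbrain, the middle vesicle of the developing brain, of B6NCrl mouse embryos at embryonic day 13.5, with tissue pooled from both sexes. There is 1 group of 2 biological replicates, no treatment and no engineered allele, and both samples carry the same donor record. Nothing in the sources used here says how far the pools of embryos were independent, so the spread between the libraries may be partly technical.

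A microRNA is cut from a hairpin in a longer transcript and guides Argonaute to messenger RNAs, mostly by pairing of its seed, bases 2 to 8 of the mature strand. Hairpins that lie close together on a strand are often made from a shared primary transcript, yet each is cut, loaded and degraded on its own. The mouse miR-322, the counterpart of human miR-424, and miR-503 are known as brakes on the cell cycle that target Cdc25a and cyclins, and they are best studied in differentiating muscle and in vessels. Mir351 carries the seed of the miR-125 family, the vertebrate lin-4 microRNAs that act in developmental timing.

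All 7 hairpins lie on the minus strand of chromosome X of mm10, from 53047997 to 53054349, a span of 6353 nt. In the direction of transcription the order is Mir322, Mir503, Mir351, Mir542, Mir450a-2, Mir450a-1 and Mir450b. Mir322 (ENSMUSG00000065418.1) lies from 53054255 to 53054349, Mir503 (ENSMUSG00000076122.1) from 53053984 to 53054054 and Mir351 (ENSMUSG00000065503.1) from 53053255 to 53053353. Mir542 (ENSMUSG00000076140.1) lies from 53049403 to 53049487. Mir450a-2 (ENSMUSG00000076399.1) lies from 53048299 to 53048367, Mir450a-1 (ENSMUSG00000065486.1) from 53048154 to 53048244 and Mir450b (ENSMUSG00000076050.1) from 53047997 to 53048078. The widest gap, 3767 nt between Mir351 and Mir542, holds the long noncoding gene Gm28730 on the same strand. Upstream of Mir322, at a distance of 697 nt, ends C430049B03Rik, another noncoding transcript of that strand. None of the hairpins overlaps another annotated gene (0 of 7).

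The mature strands below, from RefSeq on GRCm38.p6, show which hairpins share a seed and which copies reads cannot tell apart. Capitals mark the seed. RefSeq gave mature strands for 7 of 7 hairpins.
miR-322-5p: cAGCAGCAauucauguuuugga
miR-15a-5p: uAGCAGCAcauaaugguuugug
miR-503-5p: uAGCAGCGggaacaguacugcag
miR-351-5p: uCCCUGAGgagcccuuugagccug
miR-125a-5p: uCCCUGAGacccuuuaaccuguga
miR-542-3p: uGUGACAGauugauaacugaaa
miR-450a-5p: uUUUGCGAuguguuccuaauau
miR-450b-5p: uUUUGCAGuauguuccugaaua
miR-450a-1-3p: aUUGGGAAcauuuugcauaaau
miR-450a-2-3p: aUUGGGGAugcuuugcauucau
miR-450b-3p: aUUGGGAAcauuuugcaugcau

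These strands fall into several seed groups. The seed of miR-322-5p, AGCAGCA, is that of miR-15a, miR-15b, miR-16, miR-195 and miR-497. Within the first 8 bases, counted from 1 at the 5′ end, miR-503-5p differs from miR-322-5p by C1U and A8G, so its seed is AGCAGCG, which RefSeq lists for no other mouse locus. The miR-351-5p seed CCCUGAG is that of miR-125a and miR-125b. The pair Mir450a-1 and Mir450a-2 yields the same miR-450a-5p strand. That strand differs from miR-450b-5p at 7 of 22 positions, among them G7A and A8G in the seed. On the 3p side, Mir450a-1 and Mir450b share the seed UUGGGAA and differ only by A19G and A20C, while miR-450a-2-3p carries UUGGGGA.

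Levels along the cluster were steeply unequal. Mir322 stood at 9564 ± 1020 CPM (same-strand counts scaled to the library total, SD, n = 2) and held 89.0% ± 1.65 of all counts of the cluster. Mir351 followed at 774 ± 94.2 CPM, Mir542 at 239 ± 8.26 CPM, Mir503 at 104 ± 7.01 CPM and Mir450b at 46.0 ± 1.45 CPM. The Mir450a hairpins were lowest, Mir450a-1 at 5.05 ± 2.98 CPM and Mir450a-2 at 3.46 ± 1.84 CPM. Counts are per hairpin, so the 5p and 3p strands are not told apart and multimapping reads are counted at none of the hairpins. How evenly the libraries captured different sequences was not measured. Ratios between hairpins, here and below, are therefore of reads and not of molecules. Reads carried no molecular identifiers, so binomial intervals and limits cover counting error only.

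**Figure D1:**
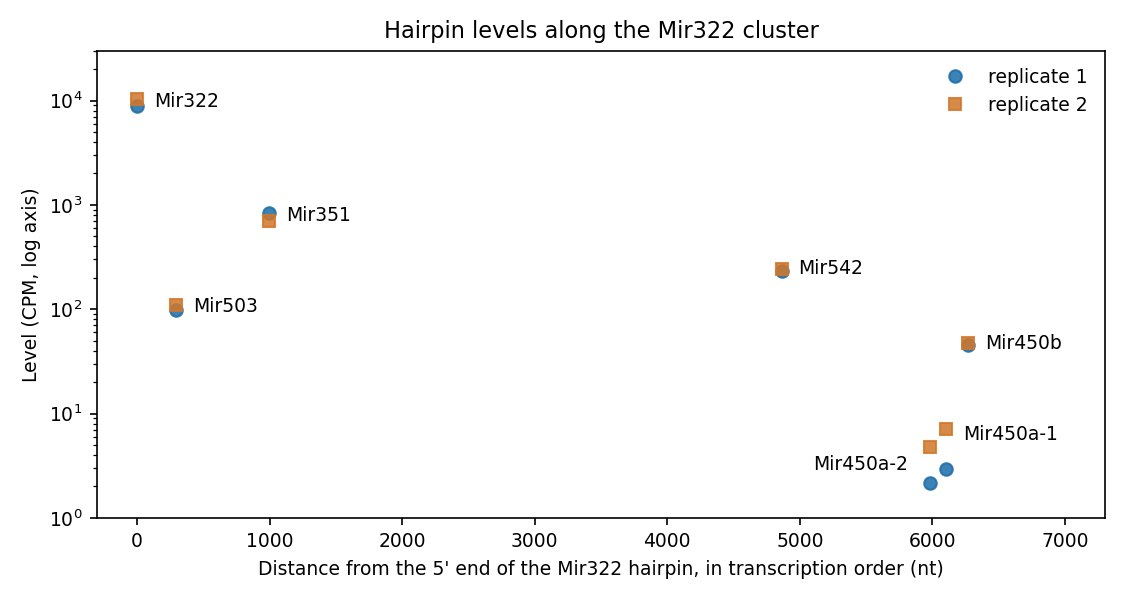
Level of each hairpin (CPM, log axis) against the distance of its 5' end from that of Mir322, in nt along the transcribed strand; circles are replicate 1 and squares replicate 2. Mir322 stands at 8843 and 10286 CPM and Mir503, which begins 295 nt downstream, at 98.7 and 109 CPM, so level does not fall in step with position.

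Mir322, the hairpin nearest the 5′ end, had 45044 counts in replicate 1 and 30197 in replicate 2, or 8843 and 10286 CPM. By mean CPM of hairpin counts it ranked 20 of all 1973 loci. Loci that share a mature strand with another lose multimapping reads, so ranks here and below are not of mature microRNAs. In mean level the nearest loci were Mir135b and Mir30a above, and Mir92b (9214 ± 1094 CPM) and Mir130b (8815 ± 842 CPM) below. Mir322 stood above Mir92b and Mir130b in both libraries, by less than the libraries differed, and against Mir30a (10030 and 9167 CPM) it was lower in replicate 1 and higher in replicate 2.

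Mir503, separated from Mir322 by 200 nt, had 503 and 319 counts, or 98.7 and 109 CPM. This was 1.12% of the Mir322 count in replicate 1 and 1.06% in replicate 2. These neighbours share the AGCAGC core. Their read levels differed from each other in both libraries by far more than either differed between the libraries. Mir503 ranked 205, next to Mir18b and Mir199b above it and Mir122 and Mir669c below it.

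Mir351 lies 630 nt beyond Mir503 and had 4282 and 2077 counts, or 841 and 707 CPM. It reached 9.51% of the Mir322 count in replicate 1 and 6.88% in replicate 2. It ranked 100, between Mir20b and Mir340 above and Mir302a and Mir219a-1 below.

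Mir542, whose 3p strand is known to act on the apoptosis inhibitor survivin, had 1188 and 719 counts, or 233 and 245 CPM. It lies downstream of the widest gap and still stood above Mir503, which is in the upstream group, by 2.36-fold in replicate 1 and 2.25-fold in replicate 2. It ranked 163, between Mir672 and Mir214 above and Mir455 and Mir496a below.

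Mir450b, the last hairpin, had 229 and 138 counts, or 45.0 and 47.0 CPM. It ranked 243, beside Mir451a, Mir326, Mir362 and Mir218-2. Mir450a-1 had 15 and 21 counts, or 2.94 and 7.15 CPM, and Mir450a-2 had 11 and 14 counts, or 2.16 and 4.77 CPM. Both Mir450a hairpins were above the level that a count of 0 allows, from 3 counts, which is 0.589 CPM in replicate 1 and 1.02 CPM in replicate 2. The longest exact run that Mir450a-1 and Mir450a-2 share is 25 nt and covers the length of their common 5p strand, so reads of that strand may lie among the multimapping reads and both levels are uncertain. Mir450b shares at most 19 nt with another annotated hairpin, Mir450a-1, so reads no longer than this run may multimap. Mir322, Mir503 and Mir542 share at most 11, 12 and 11 nt. RefSeq gave no hairpin sequence for Mir351, so its longest shared run was not measured.

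Every step in the order of levels except the last exceeded the range of the replicates. Mir322 stood above Mir351 by 10.5-fold in replicate 1 and 14.5-fold in replicate 2, and Mir351 above Mir542 by 3.60-fold and 2.89-fold. Mir503 stood above Mir450b by 2.20-fold and 2.31-fold, and Mir450b above Mir450a-1 by 15.3-fold and 6.57-fold. The Mir450a hairpins did not separate, since Mir450a-1 in replicate 1 (2.94 CPM) was below Mir450a-2 in replicate 2 (4.77 CPM). Divided by hairpin length (69 to 99 nt), Mir322 stood at 10068 and Mir503 at 146 CPM per 100 nt. The order stayed the same, and it could not have changed, since lengths differ by less than any step between mean levels.

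The ladder of shares within the cluster was alike in the libraries but not identical. Mir322 held 87.9% of the cluster in replicate 1 (87.6 to 88.1, the bounds of a 95% exact Clopper-Pearson interval) and 90.2% in replicate 2 (89.9 to 90.5). Mir351 held 8.35% (8.11 to 8.59) and 6.20% (5.95 to 6.47). For both hairpins the intervals of the libraries did not overlap, and a larger share of Mir322 necessarily goes with a smaller share of the others. The shares of Mir542 (2.32% and 2.15%), Mir503 (0.981% and 0.953%) and Mir450b (0.447% and 0.412%) had intervals that overlapped between the libraries.

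The design holds no contrast of conditions, so the only test is of the libraries against each other. Of the 7 hairpins, 3 passed a two-sided exact conditional binomial test with Benjamini-Hochberg adjustment over all 466 loci tested, and the same test called 38.0% of those loci. Mir322 and Mir450a-1 were higher in replicate 2, a direction called at 19.3% of loci. Mir351 was higher in replicate 1, called at 18.7% of loci, and 4 hairpins did not pass. Before adjustment, 6 of the 7 had an exact binomial p under 0.05. The test takes in no spread between animals. It also passes smaller ratios where counts are higher, so these shares of all loci are no background of like level. The edgeR exact test at the common dispersion of this pair of libraries was an alternative chosen after seeing the data. By it 0 of the 7 hairpins passed (1 at an unadjusted p under 0.05, Mir450a-1), beside 0.858% of all loci. That dispersion was estimated from the same 2 libraries as 1 group, so their differences are already counted in it. A locus that does not pass is therefore not shown to be alike in the libraries.

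The differences were small where counts were high. Mir322 was 1.22-fold higher in replicate 2, with a log2 ratio of replicate 1 to replicate 2 of -0.28 and an adjusted p of 1.03e-151 by the exact binomial test. Mir351 had a log2 ratio of 0.18 with an adjusted p of 9.73e-06 by the same exact test, and was 1.13-fold higher in replicate 1. Mir450a-1 had a log2 ratio of -1.21 and an adjusted exact p of 0.0232. Without the pseudocount of 0.5 CPM that the ratios carry, its fold, replicate 2 over replicate 1, was 2.54. The 95% counting interval of that fold ran from 1.25 to 5.31. With the edgeR exact test the adjusted p was 1 for Mir322, 1 for Mir351 and 0.708 for Mir450a-1. The other ratios were -0.20 for Mir503, -0.14 for Mir542, -0.13 for Mir450b and -1.04 for Mir450a-2, with adjusted exact p of 0.113, 0.103, 0.585 and 0.0883. The median log2 ratio was -0.20 over the hairpins of the cluster and -0.0041 over all loci tested.

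**Figure D2:**
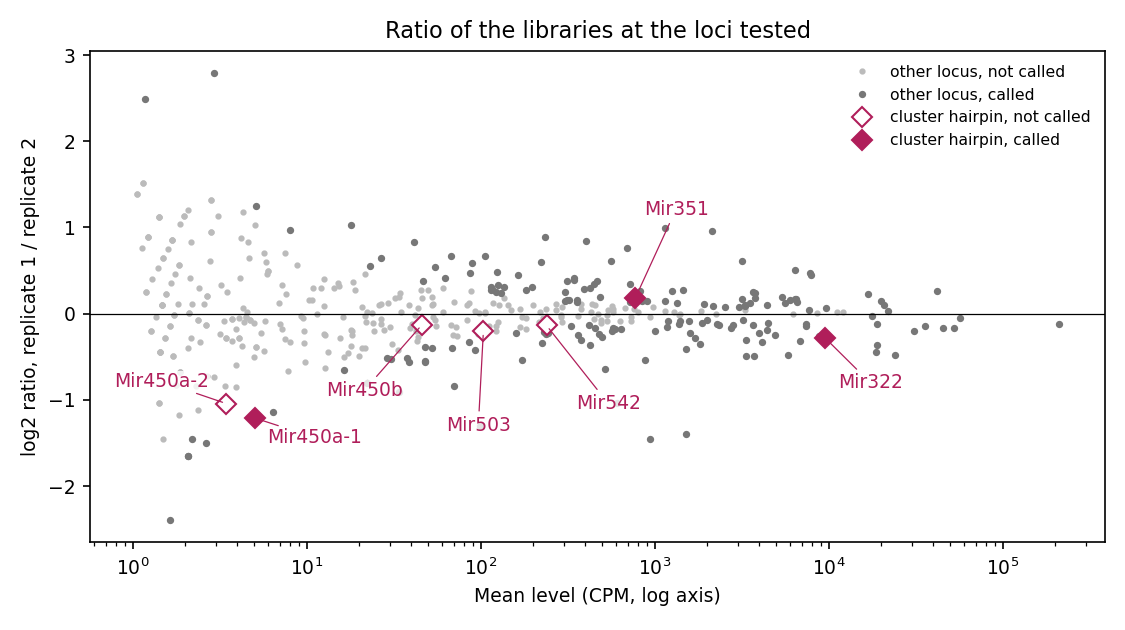
Log2 ratio of replicate 1 to replicate 2 (vertical axis) against mean level (CPM, log axis) for the 466 loci tested; diamonds are the hairpins of the cluster, filled where the exact binomial test called them, and dots are the other loci, darker where called. Mir322 (-0.28) and Mir351 (0.18) lie within the cloud of abundant loci, and Mir450a-1 (-1.21) and Mir450a-2 (-1.04) lie among loci of few counts.

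Markers of other cell types were read from the same libraries. The endothelial Mir126a, the 1 of 2 listed endothelial loci with a row, stood at 16256 CPM in replicate 1 and 21170 CPM in replicate 2 and was called higher in replicate 2 by the exact binomial test. The mural and mesenchymal list, with 8 of 9 loci in the tables, summed to 8967 and 10823 CPM, with Mir145b at 0. Of its 6 tested loci, 4 were called higher in replicate 2, the direction of Mir322, and 2 (Mir199b and Mir199a-2) did not pass. The test called 19.3% of all loci, of any level, in that direction. The neural list, with 12 of 13 loci in the tables, 12 of them with counts in both libraries, summed to 30482 and 28492 CPM. Most of this came from Mir135b, Mir92b and Mir137, at means of 11089, 9214 and 7831 CPM. Copies of Mir9, Mir128 and Mir218 share mature strands whose multimapping reads are counted nowhere, so the sum is one of hairpin counts. Of the 12 neural loci, 1 (Mir137) was called higher in replicate 1, 2 (Mir92b and Mir128-2) higher in replicate 2, and 9 did not pass. Muscle markers, from the other setting in which the cluster is best known, summed to 72.6 and 75.3 CPM over 9 of 10 loci, led by Mir208b at 40.1 ± 1.14 CPM, and 0 of 5 tested loci were called (0 at an unadjusted p under 0.05, and 0 by the edgeR exact test). Mir1a-1, Mir133a-1 and Mir133a-2 had no count in either library and Mir133b a single count, in replicate 2, but copies of a family can share mature strands whose multimapping reads are counted nowhere, so these zeros set no limit on the mature microRNAs. The erythroid list summed to 81.7 and 73.6 CPM over 2 loci. Mir451a, at 53.8 CPM in replicate 1 and 39.5 CPM in replicate 2, was called higher in replicate 1. Mir144 went the other way, at 27.9 and 34.1 CPM, and did not pass. With the edgeR exact test no locus of the 5 lists was called (0 at an unadjusted p under 0.05). The part of these cell types in the levels of the cluster was not tested, and in bulk tissue fewer cells of a type and less RNA per cell cannot be told apart.

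Set among the loci with its seed, Mir322 had the highest hairpin count. Of 11 mouse loci that RefSeq lists with the AGCAGCA seed, 10 have a row, and Mir322 held 53.0% ± 1.27 of their summed counts (52.1% of 86449 in replicate 1 and 53.9% of 56024 in replicate 2). Mir15a followed at 3957 ± 301 CPM, Mir16-1 at 2293 ± 61.9 CPM and Mir15b at 1391 ± 15.3 CPM. Mir195a stood at 516 ± 143 CPM and Mir16-2 at 305 ± 48.0 CPM. Mir195b, Mir6342, Mir6353 and Mir6419 had no count in either library. Both Mir16 hairpins yield the same miR-16-5p strand, whose reads can fall among the multimapping reads. The hairpin counts therefore give neither the rank nor the share of Mir322 among mature microRNAs with this seed. Leaving out the Mir16 hairpins, which was decided after seeing the data, gave 62.0%.

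Mir497, the locus with this seed that has no row, overlaps the row of Mir497b, which lies on the opposite strand and does not carry the seed. That row held 3 and 0 counts on its own strand and 2350 and 1488 on the other. Taking the opposite-strand counts as Mir497, also decided after seeing the data, gave Mir322 a share of 51.6%.

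Mir351 was the least abundant counted locus of its seed. Of the 6 loci with the CCCUGAG seed, all with a row, Mir125a stood at 3755 ± 564 CPM, Mir125b-1 at 2349 ± 72.5 CPM and Mir125b-2 at 1986 ± 2.72 CPM, each above Mir351 in both libraries, and Mir6367 and Mir6394 had no count. Mir351 held 8.72% ± 0.489 of the summed counts (9.06% in replicate 1 and 8.37% in replicate 2). Hairpin counts take in both strands, and miR-351-3p carries another seed, so they give no share among mature microRNAs with this seed. Both Mir125b hairpins yield the same miR-125b-5p strand, and leaving them out, again decided after seeing the data, gave Mir351 a share of 17.1%. Of the other 14 loci of both seeds, 8 entered the test of the libraries and 8 were called by it, beside 38.0% of all 466 loci. Of these, 2 were higher in replicate 1 (Mir125a and Mir16-2) and 6 higher in replicate 2. Each of the 8 had a mean of at least 305 CPM, where small ratios pass, so the 38.0% is no background of like level. With the edgeR exact test 0 of the 8 were called (0 at an unadjusted p under 0.05), the lowest adjusted p being 0.903. The log2 ratios of these 8 ran from -0.64 (Mir195a) to 0.26 (Mir16-2).

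**Figure D3:**
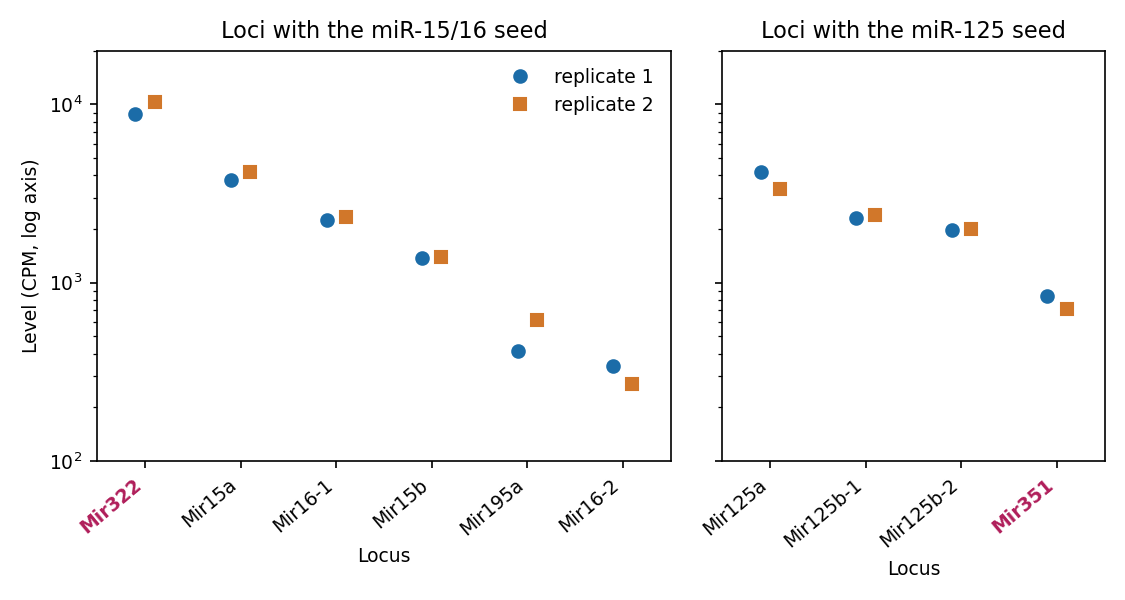
Levels (CPM, log axis) of the counted loci with the seed of Mir322 (left) and of Mir351 (right), each ordered by mean; circles are replicate 1 and squares replicate 2. Mir322 at 8843 and 10286 CPM lies above Mir15a at 3744 and 4170 CPM, and Mir351 at 841 and 707 CPM lies below the miR-125 loci.

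The whole cluster took 1.07% ± 0.0947 of all same-strand counts, 1.01% in replicate 1 (0.998 to 1.02) and 1.14% in replicate 2 (1.13 to 1.15). Other clusters also held hairpins of unequal level. In the Mir322 cluster the highest hairpin exceeded the lowest 4095-fold in replicate 1 and 2157-fold in replicate 2, both resting on the 11 and 14 counts of the uncertain Mir450a-2. In the Mir17 cluster the ratio of Mir17 to Mir19b-1 was 3137 and 1881. In the Mir106a cluster, which lies 305429 nt away on the X chromosome, the ratio of Mir106a to Mir19b-2 was 339 ± 33.7 over the libraries, and Mir15b exceeded Mir16-2 by 4.07-fold and 5.17-fold. Mir19b-1 rests on 76 and 58 counts, and Mir19b-2 on 23 and 12. Both yield the same miR-19b-3p strand, as both Mir16 hairpins yield the same miR-16-5p, so the levels of Mir19b-1, Mir19b-2 and Mir16-2 are as uncertain as that of Mir450a-2, and the ratios are no measure of mature strands.

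The share of counts in the top hairpin also varied. Mir322 held 89.0% ± 1.65 of its cluster, Mir15b 82.0% ± 2.48 of its pair with Mir16-2, Mir17 61.6% ± 0.690 of the Mir17 cluster and Mir106a 40.3% ± 2.84 of the Mir106a cluster. The values of each cluster did not overlap those of the next in the libraries. Every cluster holds hairpins that share a mature strand with another: the Mir450a pair, Mir16-2, Mir19b-1 and Mir92-1, and Mir19b-2 and Mir92-2. Their multimapping reads are counted nowhere, and the clusters hold from 2 to 7 hairpins, so the order is not one of mature strands. These ratios are a description of 2 libraries, with no test.

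**Figure D4:**
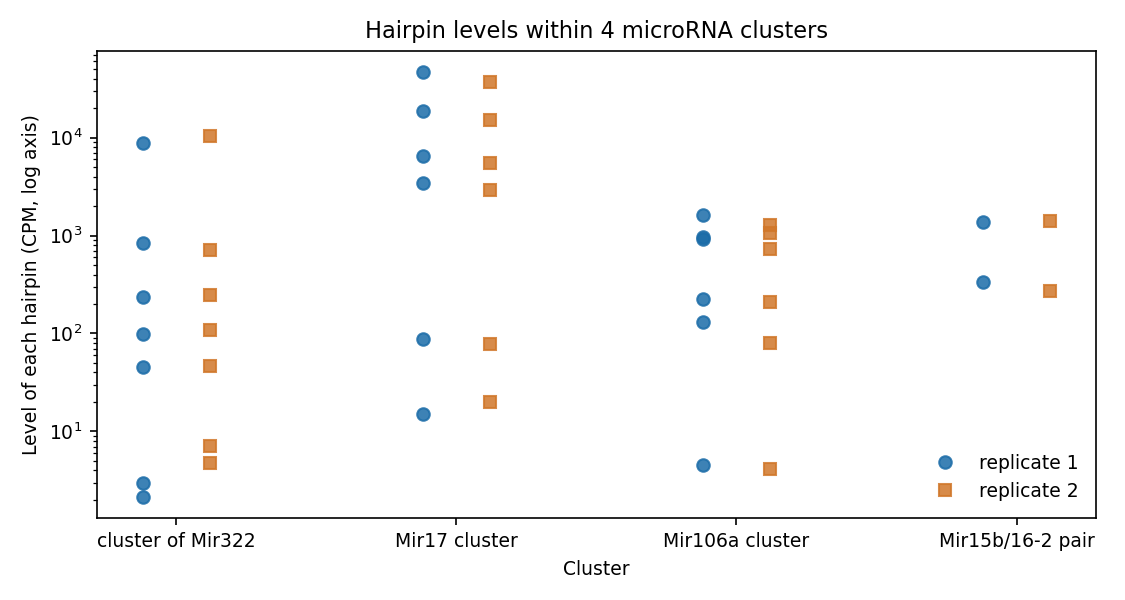
Level of each hairpin (CPM, log axis) in the Mir322 cluster (7 hairpins), the Mir17 cluster (6), the Mir106a cluster (6) and the Mir15b and Mir16-2 pair (2); circles are replicate 1 and squares replicate 2. In the Mir322 cluster a gap of at least 10.5-fold separates the top hairpin, Mir322, from the next, Mir351.

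No read was counted on the opposite strand at any of the 7 hairpins in either library. In the same tables the opposite strand held 119097 counts in replicate 1 and 63546 in replicate 2 at other loci. At this depth a count of 0 allows up to 0.589 CPM in replicate 1 and 1.02 CPM in replicate 2 at each hairpin.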

How the data were processed

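The authors deposited raw read counts per gene, 1 table for each library, on mm10 with annotation M4, per the notes in the deposited text files. The aligner, trimming and read filters were not given in the sources used here. In 3946 of 3946 rows the leading count column is the sum of the others, so the columns were read as unstranded, same-strand and opposite-strand counts, an inference from the values. Same-strand counts over gene rows were 5093743 in replicate 1 and 2935841 in replicate 2. Multimapping reads were 34.4% and 37.7% of all reads, unmapped reads 16.1% and 15.7%, unassigned reads 3.79% and 3.80% and ambiguous reads 0% and 0%. These rows name no gene and stayed out of totals and tests.

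CPM was computed over all gene rows. Names came from GENCODE M21 by ID without version (1894 of 1973 IDs), and the 7 cluster IDs had the same version. Loci with at least 10 counts (466) were tested by a conditional binomial test, exact and two-sided, at library sizes scaled by TMM (edgeR 4.0.16, scipy 1.17.1, R 4.3.3, Python 3.11.15), adjusted at 0.05, since 1 group gives edgeR no contrast. Ratios use a pseudocount of 0.5 CPM. The test was tried on simulated data. Alternatives tried were size factors of DESeq2 1.42.0, scaling to totals only, no filter, unstranded counts, thinning of replicate 1, a pseudocount of 1 CPM, another denominator, hairpin length and each replicate left out. The named loci are the hairpins of the cluster, the loci sharing the seed of Mir322, Mir503 or Mir351, and the 2 loci above and 2 below each hairpin in mean CPM. Loci of the comparison clusters and of the marker lists come from lists fixed with that rule, and other X-linked loci were named after their values were seen. Members and lists were chosen with earlier results of these data known.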

Additional observations from a re-analysis of the deposited data

How the results depend on the processing

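The count of called hairpins, 1 higher in replicate 1 and 2 higher in replicate 2, was the same with DESeq2 size factors, total counts only, no filter, unstranded counts and thinning of replicate 1. With the edgeR exact test at the common dispersion (coefficient of variation 0.158, estimated from the same 2 libraries), chosen after seeing the data, it was 0 and 0. No log2 ratio of the 7 hairpins changed sign under the 7 alternatives. That of Mir322 ran from -0.29 to -0.22, with adjusted p from 2.92e-155 to 1, and that of Mir450a-1 from -1.46 to -1.10, with adjusted p from 0.0212 to 0.708. With multimapping reads in the denominator the cluster took 0.590% of counts in place of 1.07%, and Mir322 stood at 5257 CPM. The share of Mir322 among loci with its seed was 62.0% without loci with identical mature copies and 51.6% with the opposite-strand counts at Mir497b added, and that of Mir351 was 17.1% without loci with identical copies. With each replicate left out, the share of the cluster ran from 1.01% to 1.14%, that of Mir322 within it from 87.9% to 90.2%, those of the seed loci from 52.1% to 53.9% and from 8.37% to 9.06%, and the fold from highest to lowest hairpin from 2157 to 4095. With 2 replicates, these ranges are only the values of each replicate alone, as given above, and are no further check. The library test could not be run with a replicate left out. No paired analysis was possible because there is 1 group. Depth limits the Mir450a hairpins most, with 11 to 21 counts each.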

Other observations

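The X chromosome holds 120 loci of the tables, 43 of them with at least 10 counts, and took 3.50% of replicate 1 and 3.80% of replicate 2. The Mir322 cluster held 28.7% and 30.0% of these. Mir322 had the highest hairpin count of the X-linked loci in both libraries. Next in mean level were Mir652 (4920 ± 443 CPM), Mir361 (4450 ± 90.4 CPM) and the let-7 family locus Mir98 (3330 ± 688 CPM). X-linked Mir92-2 and Mir19b-2 share a mature strand with Mir92-1 and Mir19b-1, and multimapping reads are counted nowhere. The order is therefore one of hairpin counts and not of mature microRNAs. The Mir322 values, 8843 and 10286 CPM, did not overlap those of Mir652, 4607 and 5233 CPM.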
